A study of Oncorhynchus mykiss with 38 samples.

Results

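The transcripts described are those of Ddx4 and piwil2, a pair of germ line genes of the rainbow trout (Oncorhynchus mykiss). They were chosen by name: Ddx4 through its clone 1rt40g14_c_d07, which the array description also gives as ddx4 (RefSeq synonym vas), and piwil2 through the only clone with that symbol, tcay0026.i.22 (RefSeq synonym rtili). They are 2 of the 9024 cDNA clones with values on the arrays, and 677 of those clones carried a single gene symbol. Both clones had a value on all 38 arrays.

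Ddx4, also called vasa, is an ATP-dependent RNA helicase of the DEAD-box family, found in the germ cells of most animals and widely used to mark them. Piwil2 is an Argonaute protein of the PIWI branch. Together with small partner RNAs, the piRNAs, it silences transposons in the germ line, and in mice its loss halts spermatogenesis in early meiosis. Both proteins are components of nuage, the cytoplasmic granules of germ cells in which piRNAs are processed.

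RNA from whole testes and from isolated germ cells was labelled with 33P and hybridised to nylon cDNA membranes, 1 sample on each array. The whole testes were of untreated males at 6 stages of the annual reproductive cycle. Stage I testes (n = 5) held slowly dividing type A spermatogonia. Stage IIa (n = 4) and stage IIb (n = 4) testes also held rare and then growing numbers of dividing type B spermatogonia. Stage IIIb (n = 3) testes added meiotic spermatocytes, stage V (n = 4) testes added spermatids, and stage VIII (n = 3) testes were those of spawning fish with mostly spermatozoa. Stages I to IIb shared a sampling season, as did stages IIIb and V, and stage VIII had its own, so that stage and season cannot be told apart where a comparison crosses these sets.

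Germ cell fractions were prepared by collagenase digestion and centrifugal elutriation of pooled testes, of immature fish for spermatogonia (n = 6) and of maturing fish for spermatocytes (n = 6) and spermatids (n = 3). They are enriched and not pure. According to the Methods, the spermatogonia fractions kept a minority of Sertoli cells and the spermatocyte fractions held some spermatogonia. Cells of the fractions had been digested and kept overnight in medium and whole testes had not. The donors were of stages I to II for spermatogonia and III to IV for the later fractions. In a comparison of a fraction with whole testes, cell makeup, isolation and donor stage therefore cannot be told apart. Between the spermatogonia fractions and the later fractions, cell type and maturity of the donor fish cannot be told apart. The labels do not say whether samples of a group came from separate fish, so that the p-values cover only how far these samples spread, which may be technical.

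Values are log2 signals after the quantile normalisation of the authors, which gave every array the same median, 8.17. A change is therefore a change relative to the other clones on the array, and 1 log2 unit is a 2-fold difference. Differences between groups were tested with limma over all 9024 clones, with a Benjamini-Hochberg adjusted p under 0.05 taken as passing. Where arrays of compared groups are said not to overlap, the share of all clones without overlap was not counted. Mean correlations of an array with the others of its group, over deviations from each clone's mean, ran up to 0.783 and were lowest for spermatid replicate 2 (0.065), stage IIb replicate 1 (0.222) and the spermatid replicates 1 and 3 (0.282 and 0.294). Spermatid results are given with and without single arrays.

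Ddx4 was above the array median on every array and varied widely. Its lowest value on any array lay 0.70 above the array median. In whole testes, Ddx4 was measured at 10.996, 10.91, 10.54, 10.72 and 10.85 in stage I. It was measured at 10.11, 10.60, 10.89 and 10.75 in stage IIa and at 11.22, 11.49, 11.18 and 10.999 in stage IIb. These early stages were close together, and the lowest stage IIb array lay just above the highest stage I array.

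Higher values were found in the maturing testes. Stage IIIb testes gave 11.79, 11.84 and 11.65, and stage V testes gave 11.36, 11.72, 11.61 and 11.47. Each of these 7 arrays lay above every stage I and stage IIa array. In spawning testes the signal was 9.41, 9.28 and 8.87, lower than on all of the other 35 arrays, which began at 10.11.

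Among the fractions, Ddx4 ranged between 11.74 and 12.59 in spermatogonia, with a median of 12.14. It ranged between 11.01 and 11.53 in spermatocytes, with a median of 11.28. The 3 spermatid arrays gave 11.06, 11.63 and 10.40. Spermatogonia and spermatocytes did not overlap, while spermatids spread over more than 1 log2 unit.

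The piwil2 signal fell into a higher and a lower range. It was measured at 9.27, 9.55, 9.28, 9.35 and 9.52 in stage I. The values were 9.19, 9.30, 9.38 and 9.68 in stage IIa and 9.28, 9.50, 9.40 and 9.50 in stage IIb. All of these arrays lay within the same narrow range, with no visible step between the stages.

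The lower range began at stage IIIb. Piwil2 was measured at 8.82, 8.79 and 8.80 in stage IIIb and at 8.90, 8.38, 8.62 and 8.72 in stage V. Spawning testes gave 8.36, 8.33 and 8.57. The 3 stage IIIb values were nearly the same, and none of these 10 arrays reached the lowest early-stage array.

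In spermatogonia, piwil2 ranged between 9.40 and 9.98, with a median of 9.65. In spermatocytes it ranged between 8.19 and 8.85, with a median of 8.53. The 3 spermatid arrays gave 8.48, 9.28 and 8.03. The 19 arrays from spermatogonia and from stages I to IIb thus lay between 9.19 and 9.98, and 18 of the other 19 arrays at 8.90 or below. The exception was spermatid replicate 2. In the lower range piwil2 came close to the array median, which was taken in the Methods as an estimate of the background. It was above that median on 37 of 38 arrays. The size of piwil2 falls into or within this range is therefore not fully measured.

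**Figure D1:**
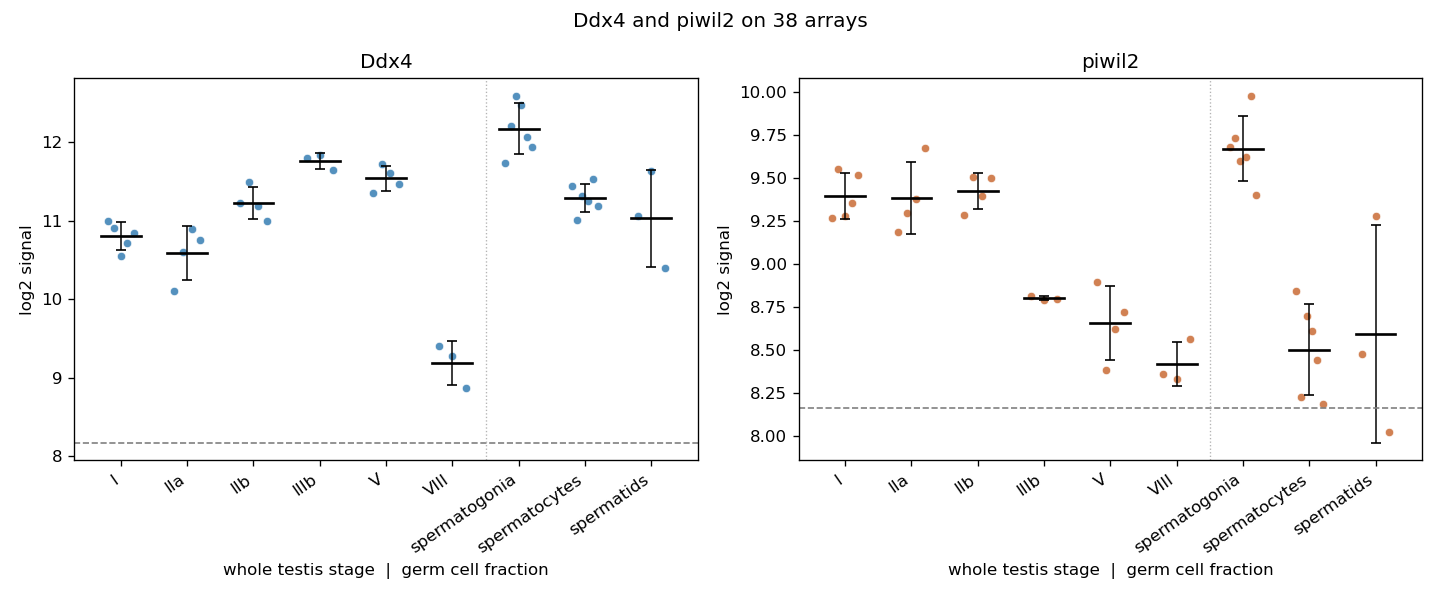
Each point is the log2 signal of 1 array for Ddx4 (left) and piwil2 (right), by whole testis stage and germ cell fraction; bars are group means with the SD, the dashed line is the array median (8.17), and the panels have different scales. Ddx4 was highest in spermatogonia and lowest in stage VIII, and piwil2 lay at 9.19 or above in stages I to IIb and spermatogonia and lower in the other groups, apart from spermatid replicate 2.

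Both clones varied across the 9 groups. In the limma F-test, F was 35.1 for Ddx4 (adjusted p = 6.7e-13, 107th of 9024 clones) and 16.9 for piwil2 (adjusted p = 5.9e-09, 593rd). The threshold was an adjusted p of 0.005, which 44.2% of all clones passed. The group means spanned 2.99 log2 units for Ddx4 and 1.25 for piwil2. The residual SD within groups was 0.28 for Ddx4 and 0.24 for piwil2, near the median of all clones (0.27).

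By group mean, the order for Ddx4 was spermatogonia (12.17 ± 0.33), stage IIIb (11.76 ± 0.10), stage V (11.54 ± 0.16), spermatocytes (11.29 ± 0.18), stage IIb (11.22 ± 0.20), spermatids (11.03 ± 0.61), stage I (10.80 ± 0.18), stage IIa (10.59 ± 0.34) and stage VIII (9.19 ± 0.28; SD, n as above). Neighbours in this order overlapped in 7 of 8 cases. Stage IIa and stage VIII were the pair that stood apart, by 1.40 (95% interval 0.97 to 1.83). The interval also left out 0 between spermatogonia and stage IIIb, by 0.41 (0.01 to 0.81), although single arrays overlapped.

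For piwil2 the order was spermatogonia (9.67 ± 0.19), stage IIb (9.42 ± 0.10), stage I (9.39 ± 0.13), stage IIa (9.38 ± 0.21), stage IIIb (8.80 ± 0.01), stage V (8.66 ± 0.21), spermatids (8.59 ± 0.63), spermatocytes (8.50 ± 0.26) and stage VIII (8.42 ± 0.13; SD). Here too 7 of 8 neighbouring pairs overlapped. The single gap was that of stage IIa over stage IIIb, at 0.58 (95% interval 0.20 to 0.96). The remaining 7 intervals held 0, so that the order within the higher and within the lower range was not resolved.

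The first question was how the transcripts moved while spermatogonia multiplied. Neither gene passed between stages I and II. Ddx4 differed by -0.22 (SE 0.19, limma adjusted p = 0.747) in stage IIa against stage I and piwil2 by -0.01 (95% interval -0.35 to 0.33), in a comparison that only 0.0111% of clones passed. In stage IIb against stage I, which 0.233% of clones passed, the Ddx4 arrays did not overlap and the change was 0.42 (95% interval 0.04 to 0.80, unadjusted p = 0.0299 in limma), but the adjusted p was 0.461. Piwil2 differed there by 0.03 (95% interval -0.31 to 0.36).

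In maturing testes the pair moved in opposite directions. In stage IIIb against stage I, Ddx4 rose 1.94-fold (log2 change 0.96, SE 0.20, limma adjusted p = 9.0e-04) and piwil2 fell 1.51-fold (log2 change -0.59, SE 0.18, adjusted p = 0.0197). Of all clones, 16.8% passed in this comparison. In whole testes, fewer cells of a type and less RNA per cell cannot be told apart. The piwil2 call was lost on leaving out any 1 of the 3 stage IIIb arrays, with changes of -0.60, -0.59 and -0.59 and adjusted p of 0.0617, 0.0699 and 0.0594.

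Set against stage IIb, stage IIIb gave a log2 change of 0.54 for Ddx4 (SE 0.21, limma adjusted p = 0.126) and of -0.62 for piwil2 (SE 0.19, adjusted p = 0.0392). The call of piwil2, in a comparison that 7.04% of clones passed (635, and 227 without stage IIIb replicate 2), was lost without stage IIb replicate 2, 3 or 4 or any of the stage IIIb replicates, with adjusted p between 0.0626 and 0.128 and changes between -0.63 and -0.59. The arrays of stages IIIb and IIb did not overlap for either gene, although Ddx4 did not pass and groups of 3 and 4 arrays separate easily.

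Stage V kept both differences from stage I. Ddx4 was 1.67-fold higher (log2 change 0.74, SE 0.19, limma adjusted p = 2.3e-03) and piwil2 1.67-fold lower (log2 change -0.74, SE 0.17, adjusted p = 6.9e-04). In this comparison 30.9% of clones passed. In stage V against stage IIIb 0% of clones passed in limma (478 had an unadjusted p under 0.05, and 153 passed with these groups fitted alone, 555 with array weights and 16 with a floor at the array median). The changes were -0.22 for Ddx4 (95% interval -0.65 to 0.21) and -0.15 for piwil2 (95% interval -0.53 to 0.24). Markers of other cells also fell in stage V against stage I: 7 of 8 Leydig and 4 of 5 matrix clones. So did 4 of 5 red blood cell and 2 of 3 Sertoli clones, beside 15.7% of all clones. In stage IIIb against stage I, 6 Leydig, 4 matrix and 1 Sertoli clone fell, beside 8.23% of all clones. The part of these markers in the changes of Ddx4 and piwil2 was not tested.

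Spawning testes had the lowest mean of both genes. In stage VIII against stage V, Ddx4 fell 5.11-fold (log2 change -2.35, SE 0.21, limma adjusted p = 7.8e-11), the 45th steepest of 4729 falling clones. Piwil2 changed by -0.24 (95% interval -0.62 to 0.15, adjusted p = 0.343). Its mean lay only 0.49 above the array median in stage V and 0.25 above it in stage VIII, so that a further fall could hardly be measured. Of all clones 37.4% passed. In stage VIII against stage I, which 24.3% of clones passed, Ddx4 fell 3.07-fold (log2 change -1.62, SE 0.20, adjusted p = 2.3e-07), the 19th steepest of 4845. Piwil2 fell 1.97-fold (log2 change -0.97, SE 0.18, adjusted p = 1.2e-04).

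Markers of other cells moved in these comparisons too. In stage VIII against stage V, all 8 clones of the Leydig list (star and cyp17a1 of steroid synthesis among them) rose. So did all 5 of red blood cells, 4 of 5 of interstitial matrix and 2 of 3 of Sertoli cells, beside 18.1% of all clones. The mean Leydig signal ranged between 10.03 and 10.40 in stage VIII and between 8.05 and 8.11 in stage V. The stage V values lay under the array median, so that the size of this rise is not fully measured. The mean signal of red blood cells ranged between 11.53 and 11.77 in stage VIII and between 8.47 and 9.19 in stage V. In stage VIII against stage I, 6 of 8 Leydig clones and 4 of 5 red blood cell clones rose, while 2 Sertoli clones rose and 1 fell, and 1 matrix clone rose and 1 fell. Among all clones, 11.3% rose and 12.9% fell in this comparison. The mean Leydig signal in stage I ranged between 8.91 and 9.48, and that of red blood cells between 9.39 and 10.56. Their part in the falls of Ddx4 and piwil2 was not tested.

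**Figure D2:**
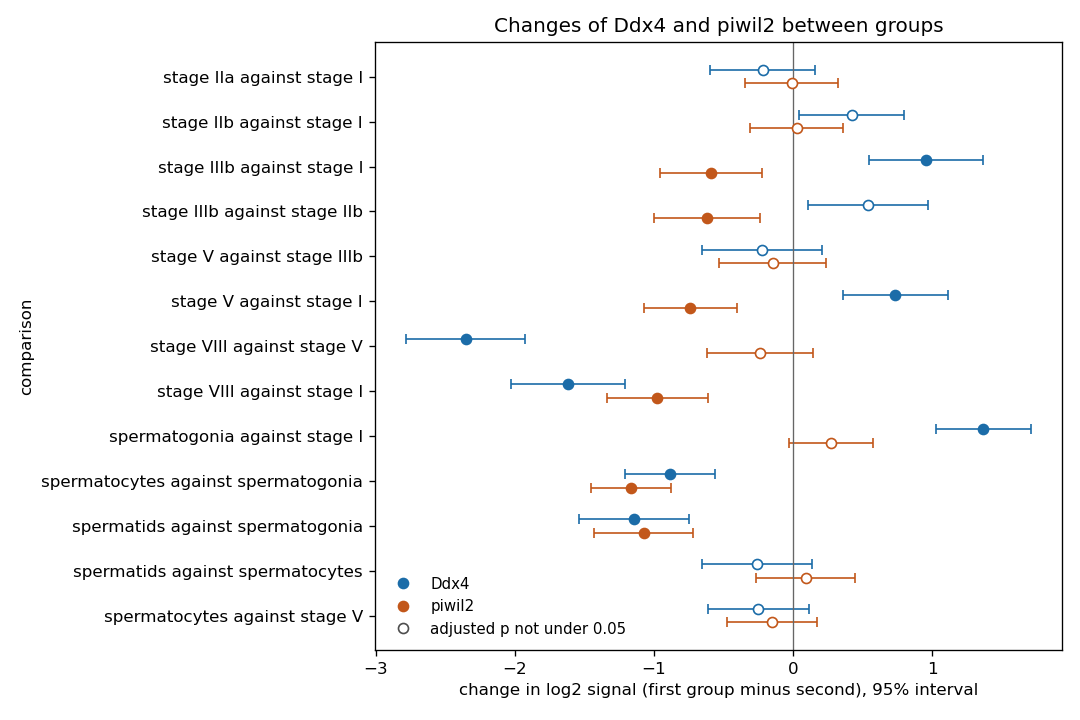
Changes in log2 signal of Ddx4 and piwil2 in 13 comparisons, first group minus second, with 95% intervals from limma; open points did not pass. The intervals of the genes lie on opposite sides of 0 in stages IIIb and V against stage I. They also do so in stage IIIb against stage IIb, where Ddx4 did not pass. The longest fall is that of Ddx4 in stage VIII against stage V (-2.35).

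The fractions set samples enriched in different germ cells beside one another and beside whole testes. Spermatogonia were richer in Ddx4 than stage I testes, by 2.58-fold (log2 change 1.37, SE 0.17, limma adjusted p = 7.0e-08), the 38th largest rise of 4846 rising clones in a comparison that 26.6% of clones passed. All 6 spermatogonia arrays lay above all 5 stage I arrays, and how many of all clones were separated likewise was not counted. Piwil2 differed by 0.27 (95% interval -0.03 to 0.58, adjusted p = 0.182), with overlapping arrays.

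Somatic markers were lower in the spermatogonia fractions. All 5 matrix clones, 6 of 8 Leydig clones and all 3 Sertoli clones fell in spermatogonia against stage I, beside 13.2% of all clones. Of these, sox9 lay under the array median in both groups (7.76 in stage I and 7.29 in spermatogonia), so that the size of its fall is not measured. The mean matrix signal ranged between 9.16 and 10.13 in spermatogonia and between 11.83 and 12.07 in stage I. The mean Sertoli signal (sox9, dmrt1 and clu) ranged between 7.77 and 8.41 in spermatogonia and between 9.38 and 9.47 in stage I, and the mean Leydig signal between 7.92 and 8.56 in spermatogonia and between 8.91 and 9.48 in stage I. In spermatogonia the group means of the Sertoli list (8.04) and the Leydig list (8.13) lay under the array median. So did Tcf23 of the matrix list (7.72). The size of these falls is therefore not fully measured. The part of the somatic cells in the higher Ddx4 signal was not tested.

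Both genes were lower in the fractions of later germ cells, which came from maturing and not from immature fish. In spermatocytes against spermatogonia, which 26.9% of clones passed, Ddx4 fell 1.84-fold (log2 change -0.88, SE 0.16, limma adjusted p = 6.9e-05). Piwil2 fell 2.24-fold (log2 change -1.16, SE 0.14, adjusted p = 1.8e-07), the 84th steepest of 4442 falling clones. Its spermatocyte mean lay only 0.34 above the array median, so that the size and rank of this fall are not fully measured. For both genes, every spermatocyte array lay below every spermatogonia array, but the share of all clones separated in this way was not counted. Of the somatic markers, 4 of 5 red blood cell, 1 of 5 matrix and 1 of 3 Sertoli clones fell in the same comparison, beside 14.9% of all clones. The part of these markers was not tested. In situ hybridisation with this Ddx4 clone is reported in the paper. It describes the strongest staining in spermatogonia and early spermatocytes, and less in later germ cells. Piwil2 was not among the genes stained.

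In spermatids against spermatogonia, which 21.3% of clones passed, Ddx4 fell 2.21-fold (log2 change -1.14, SE 0.20, limma adjusted p = 8.7e-05) and piwil2 fell 2.1-fold (log2 change -1.07, SE 0.17, adjusted p = 4.9e-05). The spermatid mean of piwil2 lay 0.43 above the array median, so that the size of its fall is not fully measured. Both genes kept their calls when any single array was left out. Without spermatid replicate 2 the changes were -1.44 for Ddx4 and -1.41 for piwil2, and without replicate 3 they were -0.83 and -0.79. Without replicate 3 the number of all clones passing was 679, against 1926 with it. Of the somatic markers, 3 of 5 red blood cell, 2 of 5 matrix, 2 of 8 Leydig and 1 of 3 Sertoli clones fell in this comparison. A rise was seen in 1 Sertoli clone, and among all clones 11.6% fell and 9.74% rose. The Sertoli clones with higher means in spermatids, sox9 and clu, were under the array median in spermatogonia (7.29 and 8.08). The size of that rise is therefore not fully measured. The mean red blood cell signal ranged between 7.35 and 8.04 in spermatids and between 8.89 and 10.42 in spermatogonia. The spermatid values lay under the array median, so that the size of this difference is not fully measured either. The part of these markers in the falls of Ddx4 and piwil2 was not tested.

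Between spermatids and spermatocytes, where 0.0665% of clones passed (6, but 289 without spermatid replicate 2), Ddx4 differed by -0.26 (95% interval -0.66 to 0.14) and piwil2 by 0.09 (95% interval -0.26 to 0.45). The sign of both turned with single arrays: Ddx4 differed by 0.05 without spermatid replicate 3 and piwil2 by -0.25 without spermatid replicate 2. In spermatocytes against stage V, which 6.79% of clones passed, the changes were -0.25 for Ddx4 (95% interval -0.61 to 0.11) and -0.15 for piwil2 (95% interval -0.48 to 0.17).

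Spermatid replicate 2 had the highest Ddx4 and the highest piwil2 of its group and differed from the other spermatid arrays in further genes. Its signal for Txndc6, a thioredoxin domain protein of later germ cells, was 8.59, against 11.01 in replicate 1 and 10.77 in replicate 3. Its signal for sycp3, which encodes a component of the synaptonemal complex, was 10.18, against 11.51 and 11.72. Its mean matrix signal was 9.41, against 8.37 and 8.45, and its mean Sertoli signal 8.60, against 7.68 and 8.25. Over all clones it correlated with the spermatogonia arrays at a mean of 0.218 and with the spermatocyte arrays at 0.228, where replicate 1 gave 0.009 and 0.491 and replicate 3 gave -0.154 and 0.450. The part of these differences in the high values of Ddx4 and piwil2 was not tested.

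Of 13 comparisons, Ddx4 passed in 7, with 3 rises and 4 falls, and piwil2 passed in 6, all of them falls. Both passed in 5, in opposite directions in 2 of these (stages IIIb and V against stage I) and downwards in 3. Ddx4 alone passed in spermatogonia against stage I and in stage VIII against stage V, and piwil2 alone in stage IIIb against stage IIb. The comparisons share groups and are not independent of one another.

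Whether the pair moved unequally was tested on the difference of Ddx4 minus piwil2 within each array, since the difference in level between clones itself carries no meaning. The difference averaged 1.41 in stage I, 1.20 in stage IIa, 1.80 in stage IIb, 2.96 in stage IIIb, 2.88 in stage V and 0.77 in stage VIII. It averaged 2.50 in spermatogonia, 2.79 in spermatocytes and 2.44 in spermatids. Every array of stages IIIb and V and of the fractions lay above every array of the other stages, while stage VIII and stage IIa arrays overlapped.

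Ddx4 rose by 1.10 log2 units more than piwil2 in spermatogonia against stage I (two-sided exact permutation test, p = 0.00216, adjusted over the 13 comparisons p = 0.0281), with no overlap between arrays. This was the only comparison to pass. The whole testis comparisons have fewer arrays and allow no exact p under 0.00794, so that passing depends partly on group size. Leaving out any 1 of the 11 arrays gave differences between 1.00 and 1.18 and adjusted p between 0.0516 and 0.0619. With 10 arrays the smallest exact p that the arrays allow is larger. Adjusted by Benjamini-Hochberg beside the other comparisons, that smallest p did not pass, so that these p-values say nothing about stability.

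In 5 further comparisons of whole testes the arrays did not overlap and the exact p was the smallest the arrays allow, but none passed the adjustment. The change of Ddx4 exceeded that of piwil2 by 1.47 in stage V against stage I (exact p = 0.00794, adjusted p = 0.0516). It exceeded that of piwil2 by 1.55 in stage IIIb against stage I (exact p = 0.0179, adjusted p = 0.058) and by 1.16 in stage IIIb against stage IIb (exact p = 0.0286, adjusted p = 0.0619). Ddx4 changed by -2.12 relative to piwil2 in stage VIII against stage V (exact p = 0.0286, adjusted p = 0.0619) and by -0.64 in stage VIII against stage I (exact p = 0.0179, adjusted p = 0.058). In stages V and VIII piwil2 lay near the array median and had little room to fall. The size of the differences that include these stages is therefore not fully measured.

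No difference among the fractions passed. The change of Ddx4 minus that of piwil2 was 0.28 in spermatocytes against spermatogonia (exact p = 0.147, adjusted p = 0.213) and -0.07 in spermatids against spermatogonia (exact p = 0.762, adjusted p = 0.762). In spermatids against spermatocytes it was -0.35, and the arrays did not overlap (exact p = 0.0357, adjusted p = 0.0645). The piwil2 means of spermatocytes and spermatids lay near the array median, so that the size of these differences is not fully measured either. The remaining values were 0.39 in stage IIb against stage I (exact p = 0.0397, adjusted p = 0.0645), -0.21 in stage IIa against stage I, -0.08 in stage V against stage IIIb and -0.10 in spermatocytes against stage V.

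**Figure D3:**
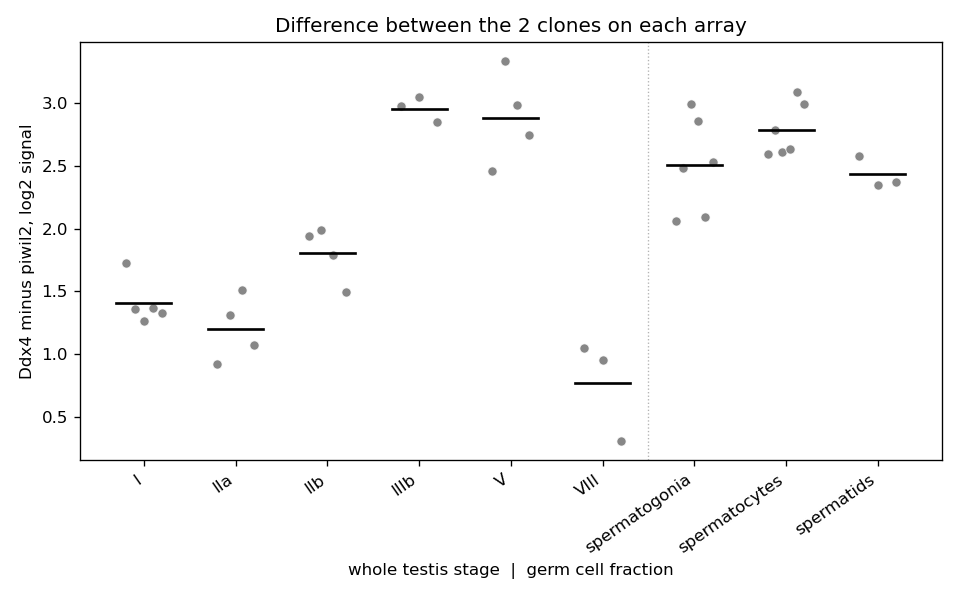
Each point is the log2 signal of Ddx4 minus that of piwil2 on 1 array, by group, with bars at the group means. The means were 1.20 to 1.80 in stages I to IIb, 2.88 and 2.96 in stages V and IIIb, 0.77 in stage VIII and 2.44 to 2.79 in the fractions.

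Few other genes of the germ line were named in the array description and could be set beside the pair. The list of germ line and piRNA genes had 5 measured clones: those of ddx4 and piwil2, 1 of rtnanos3, related to the nanos RNA-binding repressors of germ cells, and 2 of gdf9, a growth factor known from the oocyte. No further DEAD-box helicase of the list had a symbol in the array description. The paper names others on the array by its own annotation (Ddx19, Ddx39, Ddx56 and Eif4a3), and their clones were not looked up here. In stage V against stage I, where 30.9% of all clones passed, 1 of these 5 clones rose and 1 fell, and these were Ddx4 and piwil2 themselves. The median change of the list was 0.15, beside -0.04 for all clones. It was the change of 1 gdf9 clone (7.43 in stage V and 7.28 in stage I), under the array median in both. No movement of the list can be read from it.

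The rtnanos3 clone lay under the array median in 8 groups, with means between 7.52 and 7.82, and gave 8.38, 8.27 and 8.44 in stage VIII. It was higher in stage VIII than in stage V (limma adjusted p = 9.0e-03) and stage I (adjusted p = 1.0e-03). The means in stage V and stage I (7.72 and 7.52) lay under the array median, so that the size of the difference is not measured. The gdf9 clones had means between 7.12 and 7.63, all under the median, and passed only in spermatocytes against spermatogonia, where 1 of them rose by 0.37 (adjusted p = 0.0118) and the other gave -0.27 (adjusted p = 0.11).

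Genes of later germ cells were set beside the pair. In stage V against stage I, sycp3 rose by 2.16 log2 units (SE 0.31, limma adjusted p = 1.5e-06). Txndc6 averaged 11.01 in stage V and 8.16 in stage I (adjusted p = 1.3e-07). In spermatocytes against spermatogonia, sycp3 rose by 0.72 (SE 0.27, limma adjusted p = 0.0441), while Ddx4 and piwil2 fell. Txndc6 averaged 10.32 in spermatocytes and 8.01 in spermatogonia (adjusted p = 7.4e-07). Its means in stage I and spermatogonia were under the array median, as were those of both ift122 clones and of spata4, so that the size of these rises is not fully measured. All 5 clones of the axoneme and centriole list, from cetn4, ift122, spata4 and Txndc6, rose in each of these comparisons. Among all clones, 15.2% rose in stage V against stage I and 12% in spermatocytes against spermatogonia.

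In stage VIII against stage V, sycp3 fell by 2.89 (limma adjusted p = 5.5e-08), and Txndc6 averaged 8.04 in stage VIII, again under the array median, and 11.01 in stage V (adjusted p = 4.1e-07). Ddx4 fell with them, and piwil2, which lay near the array median in both stages, did not pass. Stage VIII replicate 1 stood apart in both later genes, with Txndc6 at 9.59, against 7.41 and 7.12 in replicates 2 and 3, and sycp3 at 9.22, against 7.93 and 8.18. It also had the highest stage VIII Ddx4 signal, 9.41. Without it, Ddx4 changed by -2.46 in stage VIII against stage V (adjusted p = 6.5e-10) and by -1.73 in stage VIII against stage I (adjusted p = 1.4e-06).

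**Figure D4:**
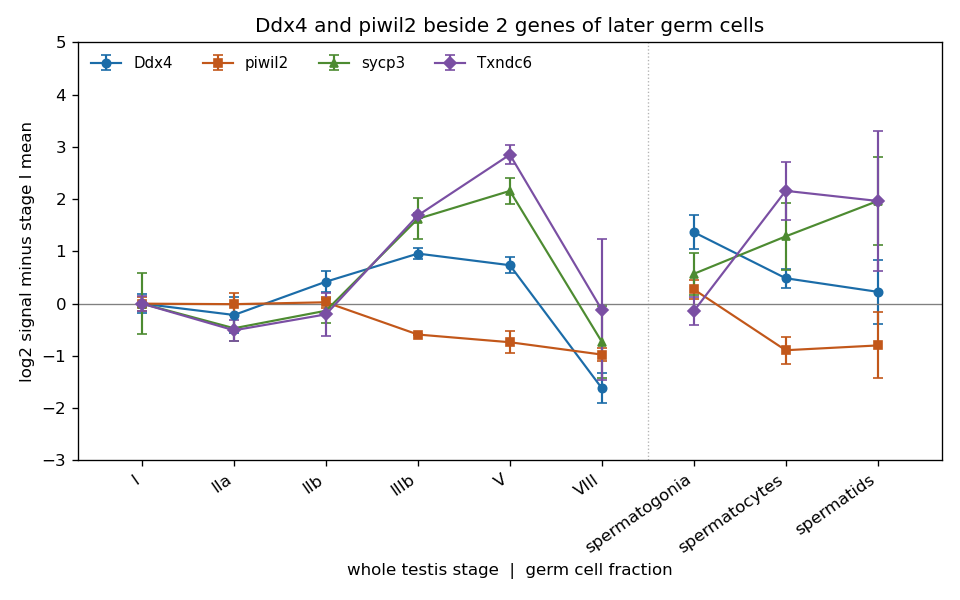
Group means of log2 signal minus the stage I mean for Ddx4, piwil2, sycp3 and Txndc6, with the SD of each group's arrays; lines join the stages and, separately, the fractions. From spermatogonia to spermatocytes the means of sycp3 and Txndc6 go up and those of Ddx4 and piwil2 go down. In stage VIII all 4 means lie under that of stage I, but sycp3 (-0.73, limma adjusted p = 0.114) and Txndc6 (-0.12, adjusted p = 0.866) did not pass. Txndc6 was under the array median in stages I to IIb, stage VIII and spermatogonia.

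The patterns of the pair over the 9 group means were only loosely alike, with Pearson's r = 0.371, and r = 0.375 over the 38 arrays. Among 679 named clones, those whose group means followed Ddx4 most closely were taf10, a subunit of the general transcription factor TFIID (r = 0.981), if3c (r = 0.941), rfa3, a subunit of replication protein A (r = 0.931), rpb7, a subunit of RNA polymerase II (r = 0.924), and hsp90bb, a cytosolic chaperone (r = 0.922). As with Ddx4, the taf10 mean was highest in spermatogonia (9.79 ± 0.16) and lowest in stage VIII (8.64 ± 0.02; SD). The rpb7 means lay between 7.57 and 8.32 and were under the array median in stages I, IIa and VIII and in spermatids. Its pattern is therefore only partly measured.

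For piwil2 the closest were 3 clones of atp5f1c, the gamma subunit of mitochondrial ATP synthase (r = 0.973, 0.968 and 0.938), tmek (r = 0.933) and eif5a, a translation factor (r = 0.915). Their means were likewise higher in stages I to IIb and spermatogonia, as in atp5f1c clone 1rt69n06_d_g03 with 10.91 ± 0.25 in spermatogonia and 9.98 ± 0.23 in spermatocytes (SD). The tmek means were under the array median in stages V and VIII, spermatocytes and spermatids, so that its pattern is only partly measured. Such correlations rest on 9 points that share arrays and normalisation, and a value over 0.9 was reached by 227 of all clones (2.52%) for Ddx4 and by 126 (1.4%) for piwil2.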

How the data were processed

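Normalised log2 values were used as deposited. Per the Methods, the authors corrected every spot's signal for its vector signal, rescaled it by that spot's median vector signal, took log2 and applied quantile normalisation; the software named is AMEN. Their filter on low vector signal was not repeated, which leaves 9024 clones (192 further entries were empty). Clones were named from the array description, Txndc6 and 2 marker clones from the paper. The paper also names a clone of Amh, which it found in Sertoli cells. That clone was not among the Sertoli clones counted here. The paper describes Amh staining as declining through maturation to spawning. The Sertoli counts therefore leave out a gene described as going down.

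The means of the 9 groups were estimated in limma 3.58.1 (R 4.3.3) without covariates, and p-values were adjusted over all clones by Benjamini-Hochberg. The threshold was 0.005 for the F-test over the 9 groups, as in the Methods, and 0.05 for 13 comparisons. The difference between the members was tested by exact permutation. Named genes were list members and the 5 named clones most correlated with each member over group means. The members and lists were chosen with earlier results of these data known; rtnanos3 was matched to the list's nanos3 by name. Alternatives were the compared groups alone, array weights, a floor at the array median, a filter on dim clones, limma trend, unmoderated variances, renewed quantile normalisation, the replicate number as a block, and leaving out each array. The fit was tested on simulated data. No read depth exists for arrays, and their number limits the precision.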

Additional observations from a re-analysis of the deposited data

How the results depend on the processing

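For Ddx4 and piwil2, 217 of 222 F-tests and changes kept their direction and their side of the threshold over 8 alternatives, and 287 of 306 did when single arrays were left out. With the groups alone, the dim-clone filter, limma trend and unmoderated variances the change itself is the same by construction. Renewed quantile normalisation of normalised values hardly altered it. In these alternatives only the side of the threshold could move, so that the first count overstates stability. With array weights, Ddx4 in stage IIIb against stage IIb passed (0.55, adjusted p = 0.0049), piwil2 in spermatogonia against stage I passed (0.28, adjusted p = 0.0257) and piwil2 in stage IIa against stage I turned to 0.11. Replicate numbers showed no pairing over all groups together: the mean correlation of deviations was -0.002 for same-numbered arrays of different groups and 0.001 for others. Single pairs reached 0.559 and 0.447, and such a mean cannot exclude pairing within some groups. With the replicate number as a block, piwil2 in stage IIIb against stage IIb was -0.59 and did not pass (adjusted p = 0.0565), piwil2 in stage IIa against stage I turned to 0.01 (0.0118), and no other call changed.

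Leaving out single arrays, piwil2 lay between -0.11 and 0.056 in stage IIa against stage I, between -0.0049 and 0.072 in stage IIb against stage I, between -0.62 and -0.55 in stage IIIb against stage I, between -0.66 and -0.59 in stage IIIb against stage IIb, and between -0.25 and 0.37 in spermatids against spermatocytes. Ddx4 lay between -0.56 and 0.054 in spermatids against spermatocytes. The change of Ddx4 minus that of piwil2 lay between 1.00 and 1.18 in spermatogonia against stage I, between 0.33 and 0.50 in stage IIb against stage I (passing without stage IIb replicate 4, adjusted p = 0.0464), between -0.23 and 0.0654 in stage V against stage IIIb, between -0.24 and 0.0543 in spermatocytes against stage V, and between -0.16 and 0.0287 in spermatids against spermatogonia. The causes were not tested.

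The number of clones passing moved by over 1.5 times in 12 of 14 tests with array weights, for instance to 6118 from 3989 in the F-test, to 2005 from 635 in stage IIIb against stage IIb and to 1083 from 1926 in spermatids against spermatogonia. It moved so in 5 tests with the groups alone (856 from 1926 in spermatids against spermatogonia), in 5 with the floor (1606 from 2428 in spermatocytes against spermatogonia), in 3 with the block and in 2 with unmoderated variances. When single arrays were left out it moved so in 26 cases, among them spermatids against spermatocytes (289 without spermatid replicate 2, 6 with all arrays), spermatids against spermatogonia (679 without spermatid replicate 3) and stage IIIb against stage IIb (227 without stage IIIb replicate 2). By correlation over arrays, 1 of the 5 clones most like Ddx4 and 4 of those most like piwil2 were the same.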
